A study of Mus musculus with 12 samples.

Results

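The genes described here are the subunits of the proteasome and the factors that assemble it, taken as every gene whose symbol on the array is Psma, Psmb, Psmc, Psmd, Psme, Psmf or Psmg followed by a number. They were 47 of the 27306 genes with a symbol, measured by 90 probes, and 28 of them had more than 1 probe. By class they were 14 constitutive core genes (7 alpha, 4 structural beta and 3 catalytic beta subunits), 3 immunoproteasome genes (Psmb8, Psmb9 and Psmb10), 2 core genes of restricted tissues (Psma8 and Psmb11), 17 genes of the regulatory particle (6 ATPases and 11 other subunits), 3 activators, 1 inhibitor and 7 assembly genes. RNA came from C2C12, a mouse myoblast line from C3H muscle that forms myotubes when serum is lowered. Cells received siControl, a negative control siRNA, or siBach1, an siRNA against the transcriptional repressor Bach1, and were taken at day 0, before differentiation, or at day 2 of differentiation in medium with 2% horse serum, which was added on the day after transfection. Each of the 4 conditions had 3 replicates, each on 1 array, and the sources do not say whether replicates were separate cultures, so p-values measure the spread between these samples, which may be technical. A single siRNA sequence against Bach1 was used on the arrays, so loss of Bach1 and other effects of that sequence cannot be told apart.

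The proteasome degrades proteins marked with ubiquitin. Its core is a barrel of alpha rings, which gate the entrance, and beta rings, of which the subunits Psmb5, Psmb6 and Psmb7 cut peptide bonds. In cells exposed to interferon these can be replaced by Psmb8, Psmb9 and Psmb10, which changes the peptides made for antigen presentation. The regulatory particle binds ubiquitin and unfolds substrates with its ring of ATPases, and dedicated chaperones build both parts. In muscle the system is known for turnover of myofibrillar proteins. Bach1 belongs to the same family as Nfe2l1 and Nfe2l2, which activate transcription, and all of them pair with small Maf proteins on antioxidant response elements. Nfe2l1 is known to raise proteasome subunit genes when proteasome activity is blocked.

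Values below are log2 processed signals minus the 75th percentile of the same array, called log2 signal, and a fold change is a difference between such values. That percentile was a signal of 325.5 to 534.4, and 47.6% to 58.9% of probes were well above background by the scanner's rule. The arrays of replicates 1 and 2 shared a slide and those of replicate 3 a second one, and a condition took the same column of positions on each, so position and condition cannot be told apart. Bach1 was lower in siBach1 cells by 1.77 ± 0.11 at day 0 and 1.97 ± 0.11 at day 2 (log2, ± SE), and Hmox1, the haem oxygenase gene that Bach1 represses, was 3.30 higher at day 0 and 3.12 higher at day 2. Of 8 muscle markers 7 were tested, and all 7 rose from day 0 to day 2 in siControl cells. In siBach1 cells at day 2, Myog, Tnnt1 and Myod1 were lower than in siControl cells by 0.98, 0.54 and 0.48 (adjusted p = 0.0165, 0.0141 and 0.0365), and the part of this difference in the results below was not tested. Markers of other cells were mostly dim, and Adgre1, Lyz2, Cdh5, Kdr, Tek, Adipoq and Cfd were well above background on too few arrays to be tested.

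Nearly all proteasome genes were strongly expressed. The test took in probes that cleared the scanner's background rule in every replicate of some condition, which held for 79 of the 90 probes and 45 of the 47 genes. For each gene the tested probe with the highest mean signal stands for it. On this choice 43 genes cleared that rule on each of the 12 arrays, and 34 of the 45 fell in the top quartile of mean signal among the 15642 genes tested. Psma8, an alpha subunit of the germ line, and Psmb11, a catalytic subunit of thymic epithelium, were not well above background on any array. Psmb8 cleared it on the 6 day 2 arrays and on none of day 0. Psmb9 was well above background on 9 arrays, namely 3 of siControl day 0, 1 of siBach1 day 0, 2 of siControl day 2 and 3 of siBach1 day 2. Psme2, which encodes the partner of Psme1 in an activator ring, had no probe under that symbol.

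**Figure D1:**
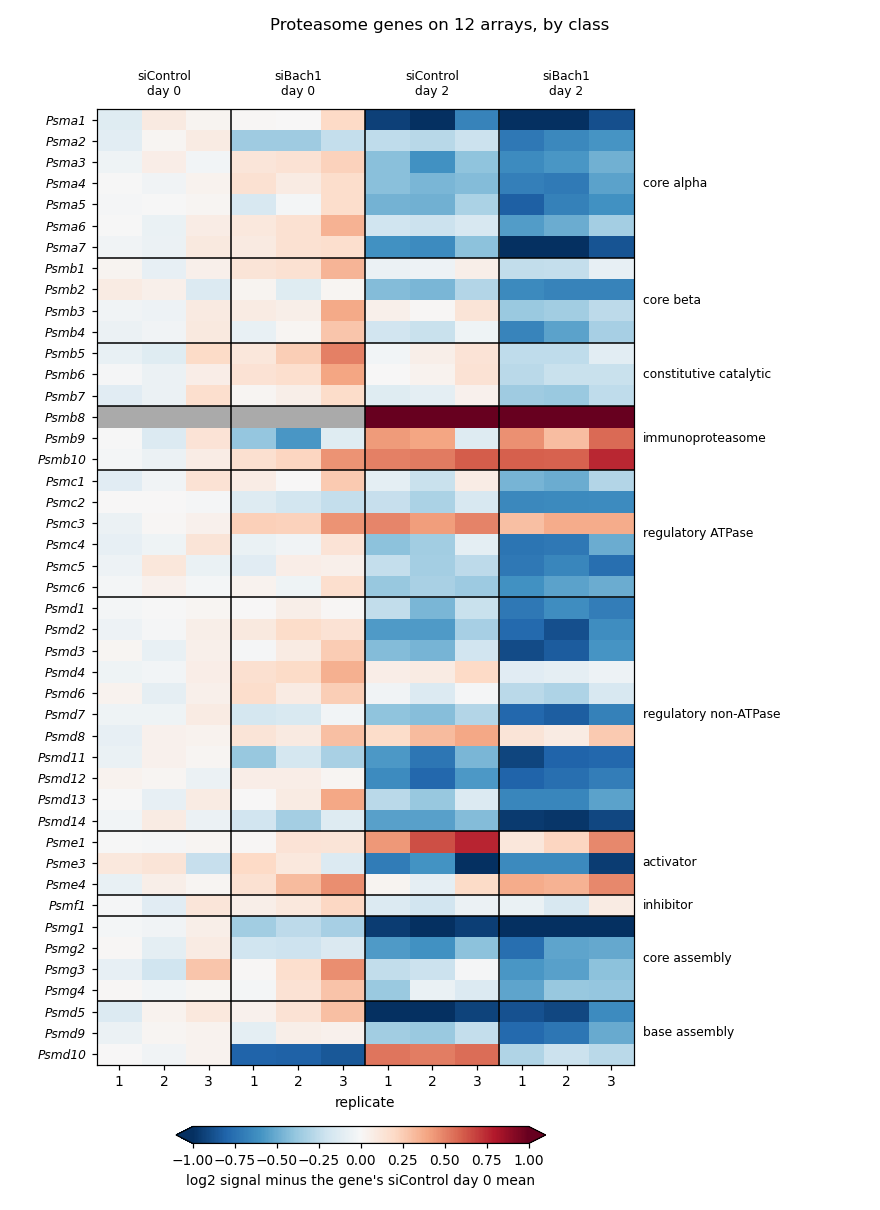
Log2 signal of the 45 tested proteasome genes (rows, by class) on the 12 arrays (columns), as the difference from the gene's mean over the 3 siControl day 0 arrays. Colours are cut off at 1 in either direction, grey marks conditions in which no array was well above background, and the blue of most core and regulatory genes at day 2 is darker in siBach1 cells, while Psmb8 and Psmb10 are red at day 2.

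Since Bach1 acts at antioxidant response elements, promoter windows were searched for that motif. RefSeq windows of assembly GRCm38.p6, from 250 bases before to 50 bases after the annotated start, were at hand for 39 of the 47 genes. The motif TGACNNNGC, on either strand, was in 6 of the 39, namely Psmb5, Psmb6, Psmc6, Psmd9, Psmd12 and Psme4, or 15.4%, against 13.99% of all 27025 genes with windows. The motif TGAGTCA, whose reverse complement is TGACTCA, was in Psmd9 alone, or 2.56%, against 5.95% of all genes. CCAAT, the motif of nuclear factor Y, was in 14 (35.9%, against 41.1% of all genes), and GAAANNGAA, a form of the interferon-stimulated element, was in 7 (17.9%, against 9.76%). TGACTCA can overlap TGACNNNGC where it is followed by GC. The 150 bases before the start are shown for the catalytic pair that carries the first motif, for the gene that carries both of the first motifs, for Psmd10, the member with the largest silencing effect, and for Psmb9. Capitals mark TGACNNNGC in Psmb5 and Psmb6, TGAGTCA and TGACNNNGC in Psmd9, and CCAAT (here as its reverse complement) in Psmd10 and Psmb9.
Psmb5 (chr14:54617996-54618145, minus strand): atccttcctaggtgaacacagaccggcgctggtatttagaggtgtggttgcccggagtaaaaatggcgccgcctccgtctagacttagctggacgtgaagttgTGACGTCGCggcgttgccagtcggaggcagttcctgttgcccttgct
Psmb6 (chr11:70525207-70525356, plus strand): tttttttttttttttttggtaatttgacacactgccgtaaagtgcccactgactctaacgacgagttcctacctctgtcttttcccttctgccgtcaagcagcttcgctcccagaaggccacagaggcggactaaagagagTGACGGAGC
Psmd9 (chr5:123228040-123228189, plus strand): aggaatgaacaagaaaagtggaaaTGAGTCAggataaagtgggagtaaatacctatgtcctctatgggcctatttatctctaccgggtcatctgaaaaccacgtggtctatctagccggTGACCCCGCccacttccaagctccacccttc
Psmd10 (chrX:140956712-140956861, minus strand): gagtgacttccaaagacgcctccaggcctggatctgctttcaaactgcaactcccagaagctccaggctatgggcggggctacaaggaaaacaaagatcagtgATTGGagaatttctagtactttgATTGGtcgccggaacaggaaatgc
Psmb9 (chr17:34187331-34187480, minus strand): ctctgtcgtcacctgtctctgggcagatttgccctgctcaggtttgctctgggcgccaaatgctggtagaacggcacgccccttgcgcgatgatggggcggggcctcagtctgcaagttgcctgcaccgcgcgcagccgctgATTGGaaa
In Psmb5 the match lies 47 to 39 bases before the start, and in Psmb6 it ends at the last base before the start. A match is a run of letters, not a binding site.

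At day 0, before differentiation, silencing of Bach1 moved few proteasome genes. Of the 45 genes, Psmc3 was higher and Psmd10, Psma2 and Psmg1 were lower in siBach1 cells at an adjusted p under 0.05. That is 1 gene higher against 10.1% of all 15642 genes and 3 lower against 9.85%, and 0 passed a fold of at least 2, against 3.14%. The median log2 fold change over the members was 0.11, close to 0.08 over all genes tested. The groups did not overlap for 12 members that were higher (background 24.0%) and for 7 that were lower (background 17.8%).

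The largest effect of silencing on any member was on Psmd10 (gankyrin), a chaperone that holds an ATPase during assembly of the base. Its log2 signal was 3.01, 2.97 and 3.04 in siControl cells and 2.21, 2.20 and 2.16 in siBach1 cells at day 0. At day 2 it was 3.54, 3.52 and 3.57 in siControl cells and 2.71, 2.80 and 2.74 in siBach1 cells. The groups were far apart at both days, and the replicates of each lay close together. Psmd10 fell by 0.82 ± 0.06 at day 0 (adjusted p = 3.41e-05), 1.76-fold, and by 0.79 ± 0.06 at day 2 (adjusted p = 0.000116), 1.73-fold. The effect at day 2 minus that at day 0 was 0.02 ± 0.09. It was also of like size on each slide, at -0.79 and -0.88 for day 0 and -0.78 and -0.82 for day 2. Psmd10 was measured by 1 probe, and in its printed promoter stretch neither TGACNNNGC nor TGAGTCA occurs.

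Psma2, an alpha ring subunit, had log2 signals of 6.72, 6.84 and 6.91 under siControl and 6.47, 6.47 and 6.59 under siBach1 at day 0, lower by 0.32 ± 0.08 (adjusted p = 0.0198). At day 2 its values were 6.57, 6.55 and 6.61 against 6.11, 6.18 and 6.23, lower by 0.41 ± 0.08 (adjusted p = 0.00918). Psmg1, which with Psmg2 starts the assembly of the alpha ring, was at 5.07, 5.05 and 5.15 under siControl and 4.74, 4.83 and 4.76 under siBach1 at day 0, lower by 0.31 ± 0.08 (adjusted p = 0.0241). Neither gene overlapped between groups at either day. Psmc3, an ATPase, was at 7.67, 7.74 and 7.78 in siControl and 7.97, 7.96 and 8.18 in siBach1 cells, higher by 0.31 ± 0.08 (adjusted p = 0.0264), and its 2 other probes gave 0.30 each.

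With the replicate number as a block, 9 members were higher (background 17.5%) and 4 lower (background 13.2%) at day 0. The genes gained were Psma6, Psmb1, Psmb5, Psmb6, Psmb10, Psmd4, Psmd6 and Psme4, which were higher, and Psmd11, which was lower. Quantile normalization gave 0 higher (background 8.36%) and 6 lower (background 10.7%), and normexp background correction gave 4 higher (background 10.8%) and 5 lower (background 9.79%). Counts at this day were small and moved with single arrays: without siBach1 replicate 1 of day 0 there were 2 higher and 1 lower, without siControl replicate 2 of day 0 there were 0 and 1, without siControl replicate 1 of day 0 there were 0 and 2, without siBach1 replicate 3 of day 0 there were 0 and 2, and without siControl replicate 3 of day 0 there were 1 and 1.

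At day 2 of differentiation, silencing lowered proteasome genes broadly and by small amounts. Of the 45 genes, 12 were lower in siBach1 cells, or 26.7% against 7.40% of all genes, and 0 were higher, against 6.38%. The median log2 fold change was -0.27 over the members and -0.03 over all genes tested, and 38 of the 45 were below 0. By the probe that stands for each gene, all 14 constitutive core and all 17 regulatory genes had negative fold changes. The 3 immunoproteasome genes had positive ones, without a call. For Psmb8 and Psmb9, both dim, the sign was not stable. Psmb8 was as low as -0.02 with 1 array left out, and Psmb9 was at -0.03 on slide 1. Dimmer probes of Psma3, Psmb2, Psmc2, Psmc3 and Psmd1 were above 0 without a call, reaching 0.13, 0.26, 0.19, 0.07 and 0.14. For 32 members every siBach1 array was below every siControl array (background 19.0%), and for 2 every siBach1 array was above (background 15.6%). None passed a fold of at least 2, against 2.56% of all genes. At day 0, 33 of the same 45 fold changes were above 0, and 27 genes (60%) were above 0 at day 0 and below 0 at day 2, against 27.0% of all genes tested and 44.3% of those in the top quartile of signal.

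**Figure D2:**
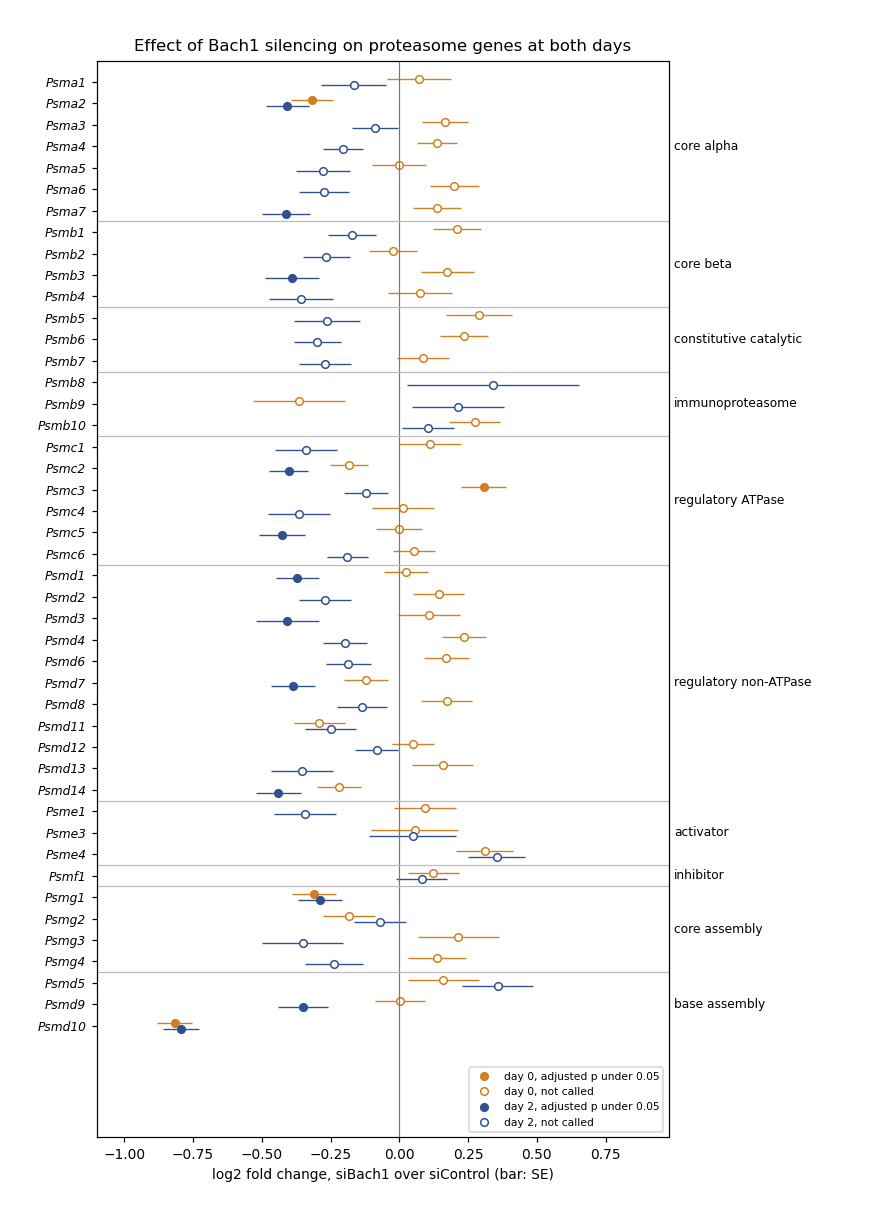
Log2 fold change of siBach1 over siControl cells for each of the 45 tested proteasome genes at day 0 (orange) and day 2 (blue), with bars of 1 SE from the fit of 12 arrays and filled points for an adjusted p under 0.05. Psmb8 has no point at day 0, where no array was well above background. Psmd10 stands apart at both days, and 38 of 45 points are below 0 at day 2.

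The 12 genes were 3 constitutive core genes, 6 regulatory genes and 3 assembly genes. After Psmd10, the falls were of 0.44 ± 0.08 for Psmd14, the deubiquitinase of the regulatory lid (adjusted p = 0.00763), 0.43 ± 0.08 for the ATPase Psmc5, 0.41 for the alpha subunits Psma2 and Psma7 and for the lid subunit Psmd3, 0.40 for the ATPase Psmc2, 0.39 for the beta subunit Psmb3 and the lid subunit Psmd7, 0.37 for Psmd1, the large scaffold of the base, 0.35 for the chaperone Psmd9 and 0.29 for Psmg1. Psmd14 was at 4.92, 4.92 and 5.03 in siControl cells and 4.51, 4.49 and 4.55 in siBach1 cells. Psmc5 was at 4.85, 4.74 and 4.82 against 4.37, 4.43 and 4.33. For both genes the groups lay well apart. Psmd14 had a second tested probe at -0.43 (adjusted p = 0.0098).

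The size of the count depended on the fit more than the direction did. With the replicate number as a block 27 members were lower (background 13.3%), all 12 above among them, and 2 were higher (background 10.4%), namely Psmd5 and Psme4. The genes gained as lower were Psma4, Psma5, Psma6, Psmb4, Psmb5, Psmb6, Psmb7, Psmc1, Psmc4, Psmd2, Psmd4, Psmd6, Psmd13, Psme1 and Psmg3. Quantile normalization gave 6 lower (background 6.62%) and 2 higher (background 7.75%), again Psmd5 and Psme4, with a member median of -0.15. Signal strength moved with the result: among all 3911 genes in the top quartile of signal the median at day 2 was -0.11 and 12.1% were lower, and among the 34 members in that quartile it was -0.28 and 29.4% were lower. On slide 1 the member median was -0.26 and on slide 2 also -0.26. The count of 12 fell to 5 without siBach1 replicate 1 of day 2, to 7 without siControl replicate 1 of day 2 and to 7 without siControl replicate 3 of day 2. Of the 12 genes, Psmd3 and Psmg1 lost the call in 10 of the 12 fits that left out 1 array, Psmd9 in 7, Psmb3 in 5, Psmd1 in 3 and Psma7 and Psmd7 in 1 each, and Psmd10, Psmd14, Psmc2, Psmc5 and Psma2 in 0. Of these last 5, in the 12 other settings without a fold cut-off Psmc2 lost the call in 3, Psmd14, Psmc5 and Psma2 in 1 each and Psmd10 in 0. The smallest effect for Psmc2 in those settings was -0.10. None of the 5 passed with a fold of at least 2.

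The effect of silencing had a different sign at the 2 days for many genes, and the difference between the effects was tested as an interaction. It was negative for 38 of 45 members, with a median of -0.34 against -0.07 over all genes tested and -0.20 over the top quartile of signal. Psma7, Psmb6 and Psmb3 passed the test (3 lower, or 6.67%, against 2.74% of all genes), and 0 members passed in the other direction, against 3.08%. Psma7 was at 6.62, 6.60 and 6.76 under siControl and 6.75, 6.82 and 6.83 under siBach1 at day 0, and at 6.06, 6.03 and 6.25 against 5.64, 5.67 and 5.80 at day 2. Psmb3 was at 6.57, 6.55 and 6.69 against 6.68, 6.66 and 6.98 at day 0, and at 6.65, 6.61 and 6.73 against 6.23, 6.25 and 6.34 at day 2. In Psma7 the siBach1 arrays were the lower ones at day 2 with no overlap, and in Psmb3 likewise. The difference was -0.55 ± 0.12 for Psma7 (adjusted p = 0.0362), -0.57 ± 0.14 for Psmb3 (adjusted p = 0.0474) and -0.53 ± 0.12 for Psmb6 (adjusted p = 0.0381). With the replicate block 22 members passed as lower (background 8.93%) and 0 as higher (background 6.41%), with all 3 of these among them. The others were Psma4, Psma6, Psmb1, Psmb4, Psmb5, Psmb7, Psmc1, Psmc3, Psmc4, Psmc5, Psmd1, Psmd2, Psmd3, Psmd4, Psmd6, Psmd9, Psmd13, Psme1 and Psmg3. With quantile normalization 0 passed in either direction, against 1.53% of all genes lower and 3.39% higher. Each of the 12 arrays mattered: 2 genes passed without siControl replicate 2 of day 2, 1 passed without siBach1 replicate 1 of day 0, siBach1 replicate 3 of day 2 or siControl replicate 3 of day 0, and 0 passed without any 1 of the other 8.

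**Figure D3:**
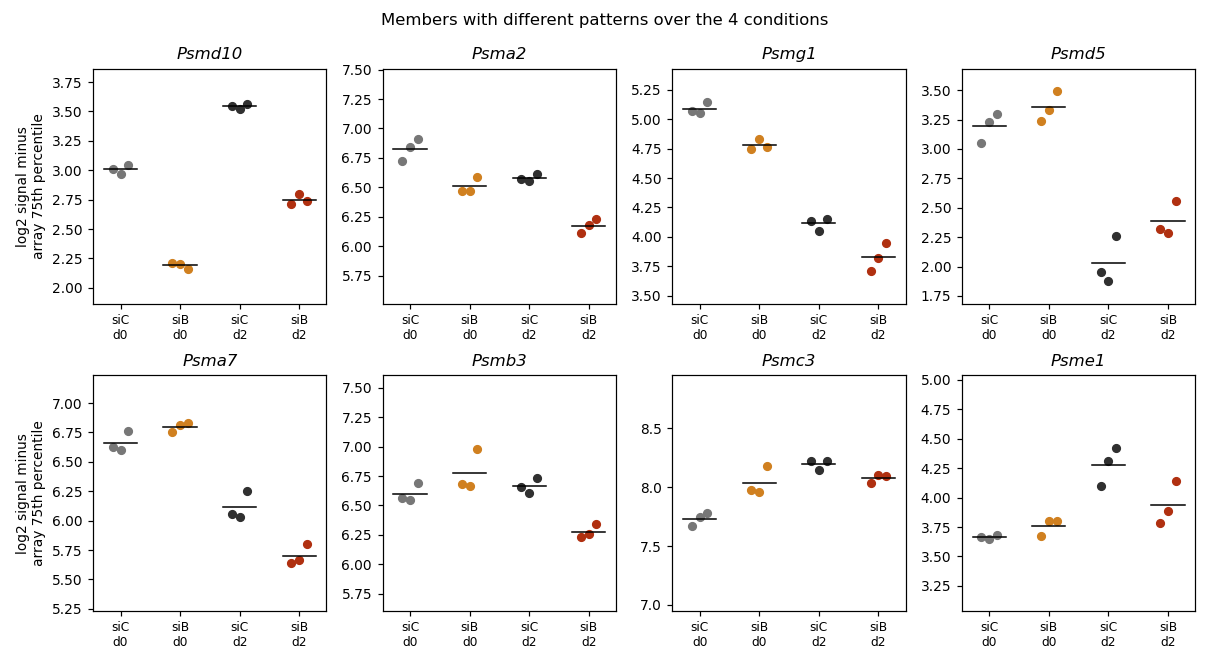
Log2 signal of 8 members on each array (points) with the group mean (line), for siControl (siC) and siBach1 (siB) cells at day 0 (d0) and day 2 (d2). Every panel has its own range. Psmd10 drops by about the same amount at both days, Psma7 and Psmb3 are lower in siBach1 cells at day 2 only, and Psmd5 and Psmg1 are low at day 2 under both siRNAs.

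The catalytic subunits showed the contrast between the constitutive and the immunoproteasome forms. Psmb6 was at 7.07, 7.02 and 7.15 under siControl and 7.22, 7.25 and 7.47 under siBach1 at day 0, and at 7.08, 7.12 and 7.22 against 6.81, 6.86 and 6.86 at day 2. Psmb5 was at 5.41, 5.37 and 5.68 against 5.60, 5.73 and 5.99 at day 0, and at 5.46, 5.55 and 5.63 against 5.23, 5.24 and 5.38 at day 2. In both genes the siBach1 mean was the highest of the 4 conditions at day 0 and the lowest at day 2. The silencing effects at day 0 and day 2 were 0.24 and -0.30 for Psmb6, 0.29 and -0.26 for Psmb5 and 0.09 and -0.27 for Psmb7, none of which passed the test (adjusted p of 0.0502 to 0.598). With the replicate block all 3 passed as lower at day 2 (adjusted p = 0.0154 for Psmb6, 0.0346 for Psmb5 and 0.0154 for Psmb7), Psmb6 and Psmb5 as higher at day 0, and all 3 in the difference between the days. From day 0 to day 2 they differed by 0.06, 0.06 and -0.06 in siControl cells, with no call. In siBach1 cells they fell, by 0.47 ± 0.09 for Psmb6, 0.49 ± 0.12 for Psmb5 and 0.41 ± 0.09 for Psmb7 (adjusted p = 0.000847, 0.00504 and 0.0036). With quantile normalization none of these 3 falls passed, at -0.07 for Psmb6, -0.15 for Psmb5 and -0.13 for Psmb7 (adjusted p = 0.349, 0.233 and 0.198).

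**Figure D4:**
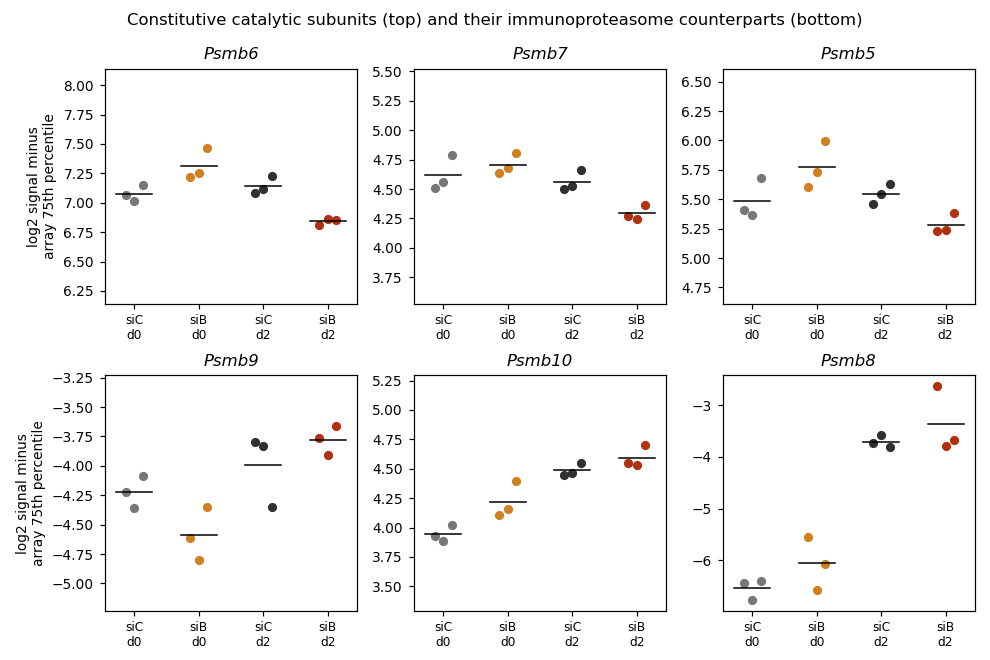
Log2 signal of the catalytic subunits Psmb6, Psmb7 and Psmb5 (top) and of the immunoproteasome subunits Psmb9, Psmb10 and Psmb8 that can replace them (bottom), on each array with the group mean (line). The top row is lowest in siBach1 cells at day 2, and Psmb10 and Psmb8 are higher at day 2 under both siRNAs. Psmb8 was not well above background on any day 0 array, and levels are not comparable between panels.

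Psmb8 and Psmb10 rose with time under both siRNAs, unlike the constitutive catalytic genes. Psmb10 was at 3.93, 3.89 and 4.02 in siControl cells at day 0 and at 4.45, 4.46 and 4.55 at day 2, higher by 0.54 ± 0.09 (adjusted p = 0.000635). In siBach1 cells it was at 4.11, 4.16 and 4.39 at day 0 and 4.55, 4.53 and 4.70 at day 2, higher by 0.37 ± 0.09 (adjusted p = 0.00609). Psmb8 was at -3.73, -3.58 and -3.81 under siControl and -2.63, -3.79 and -3.68 under siBach1 at day 2, with no array of day 0 well above background. Against the lowest day 0 signal that counted as well above background, its day 2 level was at least 1.91-fold higher in siControl cells. The bound in siBach1 cells was 2.01-fold. Both bounds hold for the main processing only. The measured log2 differences of 2.83 and 2.69 were as low as 0.75 and 0.58 in other settings. The probe entered the test through its day 2 arrays alone, so no p-value is given. Psmb9 was at -4.23, -4.36 and -4.08 under siControl and -4.61, -4.80 and -4.35 under siBach1 at day 0, and at -3.80, -3.83 and -4.35 against -3.77, -3.91 and -3.66 at day 2. Its measured difference in siBach1 cells was 0.81 ± 0.17 (adjusted p = 0.00187), with 1 of 3 day 0 arrays well above background, and with normexp correction it was 0.13 and did not pass (adjusted p = 0.387). In siControl cells it was 0.23 ± 0.17 (adjusted p = 0.272). The difference between these 2 changes, 0.58 ± 0.24, did not pass the test (adjusted p = 0.189). None of the 3 was called on silencing at either day. Effects at day 2 were 0.11 for Psmb10, 0.21 for Psmb9 and 0.34 for Psmb8 (adjusted p of 0.463 to 0.541). At day 0 Psmb9 gave -0.36 without a call, and Psmb8 was not well above background. Psmb10, at 0.27 at day 0, passed with the replicate block (adjusted p = 0.0133) and with the slide block.

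In the mouse genome Psmb9 and Psmb8 alternate with Tap1 and Tap2, the transporters that carry peptides to class I molecules. Tap2 rose with Psmb8, by 1.47 in siControl and 1.07 in siBach1 cells (adjusted p = 2.64e-05 and 0.000218), whereas Tap1, which was dim, differed by -0.40 in siControl cells and fell by 0.76 in siBach1 cells (adjusted p = 0.0127). Of the 16 genes on a list for antigen presentation and interferon, 11 rose and 0 fell in siControl cells from day 0 to day 2, where 27.7% of all genes rose and 30.1% fell. Silencing lowered 4 of the 16 at day 2, against 7.40% of all genes, all of them interferon-induced. These were Ifit3 by 1.94, Isg15 by 1.34, Irf7 by 0.95, and Ifit1, which was well above background on 4 arrays in all. Ifit1 thus entered the test through a single condition, and its calls here and among the 11 are no support. In the 12 fits that left out 1 array the call was lost in 3 for Ifit3, 3 for Irf7 and 0 for Isg15. In other settings it was lost in 2 of 11, 5 of 12 and 1 of 12. At day 0, 3 of the 16 were higher (background 10.1%) and 2 lower (background 9.85%). Tap2, Stat2 and Irf1 were higher, by 0.65, 0.36 and 0.33, and lost the call in 3, 4 and 4 of the 12 fits that left out 1 array. Ifit3 and Nlrc5 were lower, by 1.64 and 0.96. The last 2 were well above background on 1 of 3 siBach1 arrays, did not pass with normexp correction (-0.17 and -0.26, adjusted p = 0.566 and 0.186), and lost the call in 7 and 6 of the 12 fits that left out 1 array.

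By sign, most constitutive core and regulatory genes were lower at day 2 than at day 0 under both siRNAs. In siControl cells 7 of the 14 core and 10 of the 17 regulatory genes were called lower. Medium and array position changed with the day, so their parts and that of differentiation cannot be told apart. In siControl cells 22 of the 45 members were lower and 6 higher at day 2 than at day 0, or 48.9% lower against 30.1% of all genes and 13.3% higher against 27.7%. By measured values 2 passed a fold of 2, against 21.5% of all genes: Psmd5 fell, and Psmb8 rose. For Psmb8 the main processing gives only a fold of at least 1.91. Psmb8 entered the test through its day 2 arrays alone. The counts of higher genes under both siRNAs thus include this gene, which could only be called as a rise. In siBach1 cells 36 were lower, or 80.0% against 33.3%, and 4 higher, against 26.7%, with 3 past a measured fold of 2, against 21.8%, namely Psma1, Psma7 and Psmb8. All 22 genes that were lower in siControl cells were lower in siBach1 cells too, and made up 61.1% of the 36. With the replicate block Psma6, Psmc4 and Psmd13 were lower in siControl cells too. The member median was -0.25 in siControl cells, with 0.01 over all genes tested, and -0.59 in siBach1 cells, with -0.06 over all genes tested. In the top quartile of signal the medians over all genes were -0.10 and -0.29, with 38.1% and 51.8% lower. Quantile normalization gave 24 lower (background 27.8%) and 8 higher (background 29.6%) in siBach1 cells, and medians of -0.14 and -0.29.

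By class, the mean deviation from the siControl day 0 level in siControl cells at day 2 was -0.46 ± 0.08 for the 7 alpha subunits (SD over 3 arrays), -0.12 ± 0.08 for the 4 structural beta subunits, 0.02 ± 0.08 for the 3 catalytic ones, -0.13 ± 0.07 for the ATPases and -0.29 ± 0.09 for the other regulatory subunits. In siBach1 cells at day 2 the same means were -0.72 ± 0.09, -0.42 ± 0.07, -0.26 ± 0.05, -0.43 ± 0.05 and -0.57 ± 0.07. In each of these classes the siBach1 arrays of day 2 were below the siControl arrays of day 2 without overlap. At day 0 the siBach1 arrays were at 0.06 ± 0.08, 0.11 ± 0.13, 0.20 ± 0.14, 0.05 ± 0.08 and 0.04 ± 0.06.

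**Figure D5:**
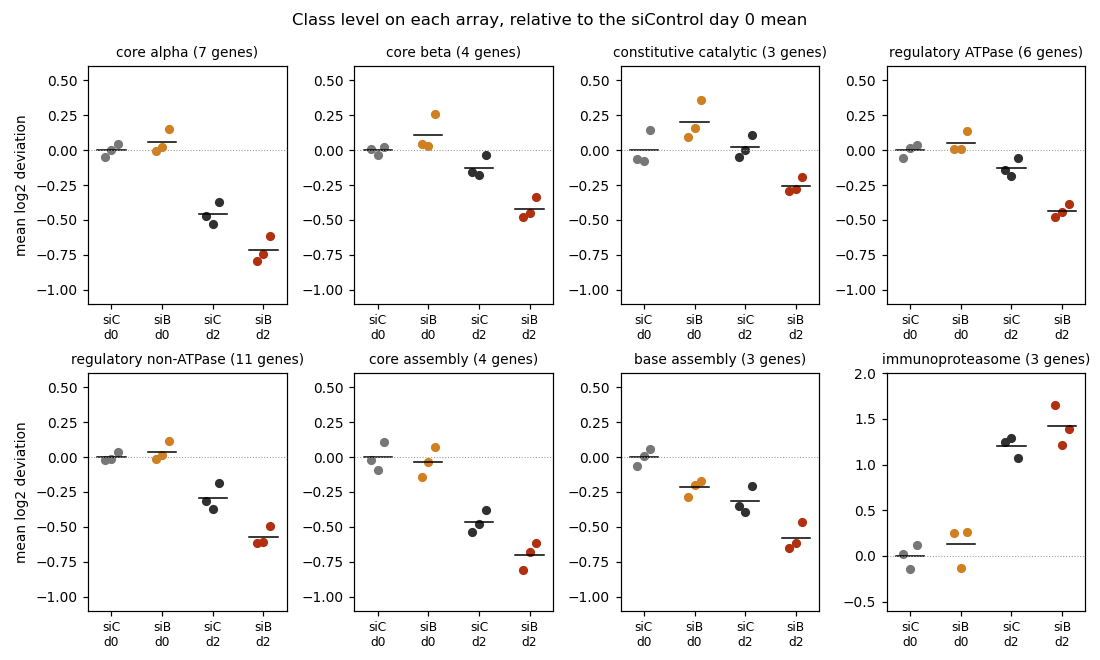
Mean over the genes of a class of the log2 signal minus that gene's siControl day 0 mean, for each array (points) with the group mean (line), in siControl (siC) and siBach1 (siB) cells at day 0 (d0) and day 2 (d2). Alpha subunits are at -0.46 under siControl and -0.72 under siBach1 at day 2, and the immunoproteasome panel, which includes day 0 values of Psmb8 that were not well above background, has its own range.

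In siControl cells the steepest falls with differentiation were in assembly, alpha subunit and activator genes. Psmd5, a chaperone of the ATPase ring, was at 3.05, 3.23 and 3.29 at day 0 and 1.95, 1.88 and 2.26 at day 2 in siControl cells, lower by 1.16 ± 0.13 or 2.24-fold (adjusted p = 2.68e-05). In siBach1 cells it was at 3.23, 3.33 and 3.49 and then at 2.32, 2.28 and 2.56, lower by 0.97 ± 0.13. Psmg1 fell by 0.98 and 0.95, the alpha subunit Psma1 by 0.87 and 1.11, and Psme3, the activator ring of the nucleus, by 0.79 and 0.80. The falls in siControl cells went on with 0.66 for Psmd12, 0.59 for Psmd11, 0.55 for Psma7, 0.53 for Psmg2, 0.51 for Psmd14 and 0.49 for Psmd2. In siBach1 cells Psma7 fell by 1.10, Psmd2 by 0.90, Psmd3 by 0.88, Psmd12 by 0.80, Psma4 by 0.78 and Psmd13 by 0.77.

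The 6 genes counted as higher in siControl cells were Psmb8 and Psmb10, the activator Psme1, Psmd10, Psmc3 and the lid subunit Psmd8. Psmb8 passed the filter through its day 2 arrays alone, so a rise was the only call open to it. Psme1 was at 3.66, 3.65 and 3.68 at day 0 and 4.10, 4.31 and 4.43 at day 2 in siControl cells, higher by 0.61 ± 0.11 (adjusted p = 0.000886). In siBach1 cells it was at 3.68, 3.80 and 3.80 and then at 3.78, 3.88 and 4.14, a difference of 0.18 ± 0.11 (adjusted p = 0.206). Psmd10 rose by 0.53 and 0.56, Psmc3 by 0.47 in siControl cells, and Psmd8 by 0.30 in siControl cells. In siBach1 cells Psmc3 and Psmd8 differed by 0.04 and -0.01. The 4 genes higher in siBach1 cells were Psmb8, Psmb9, Psmb10 and Psmd10. Psme1, Psmc3 and Psmd8 passed in siControl and not in siBach1 cells, and the interaction did not pass for any of them (adjusted p = 0.144, 0.0615 and 0.199), while with the replicate block it did for Psme1 and Psmc3 (adjusted p = 0.0447 and 0.0265). With quantile normalization all 3 passed as higher in siBach1 cells as well, Psme1 by 0.42 (adjusted p = 0.00562).

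Assembly genes did not act as 1 group. Of the 7, Psmg1 and Psmd10 were lower on silencing at day 0, and these and Psmd9 at day 2. Psmd9 was at 1.60, 1.58 and 1.71 under siControl and 1.17, 1.23 and 1.45 under siBach1 at day 2, lower by 0.35 ± 0.09 (adjusted p = 0.0342), with a difference of 0.00 at day 0. Psmd5 differed by 0.16 and 0.36 at the 2 days, without a call. It passed as higher at day 2 with the replicate block (adjusted p = 0.0129), the slide block or quantile normalization. Psmg2 differed by -0.18 and -0.07, Psmg3 by 0.21 and -0.35, and Psmg4 by 0.14 and -0.24, of which Psmg3 at day 2 passed with the replicate block (adjusted p = 0.0206). From day 0 to day 2 Psmd5, Psmg1, Psmg2 and Psmd9 were lower under both siRNAs, Psmg3 and Psmg4 in siBach1 cells, by 0.72 and 0.57, and Psmd10 was higher under both.

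Activators and the inhibitor differed from each other too. Psme4, the large single-chain activator, was at 4.67, 4.80 and 4.76 under siControl and 4.89, 5.06 and 5.20 under siBach1 at day 0, and at 4.77, 4.65 and 4.94 against 5.11, 5.09 and 5.22 at day 2. The siBach1 arrays were above the siControl arrays at both days, by 0.31 ± 0.10 and 0.35 ± 0.10, which did not pass (adjusted p = 0.067 and 0.0522). Both differences passed with the replicate block (adjusted p = 0.0228 and 0.0175) and with the slide block. Psme1 differed by 0.09 and -0.34 at the 2 days, the latter passing with the block (adjusted p = 0.0217), and Psme3 by 0.06 and 0.05. Psmf1, a protein inhibitor of the core, differed by 0.12 and 0.08 on silencing and by -0.13 and -0.17 with time, and its fall with time in siBach1 cells passed with the block (adjusted p = 0.0316).

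Probes of 1 gene mostly gave like values, with some exceptions. A second probe of Psmf1 fell by 0.55 and 0.56 with time and was higher by 0.25 on silencing at day 0 (adjusted p = 0.0493), unlike the brighter one. A second probe of Psmc6 was lower on silencing by 0.40 at day 0 and 0.36 at day 2 (adjusted p = 0.0145 and 0.0322), where the brighter one gave 0.05 and -0.19. A dimmer probe of Psmd3 gave -0.01 at day 2, where the brighter one was called lower at -0.41. For Psmd7, also called lower, the dimmer probe gave -0.14, and for Psmd1 1 of 4 probes was called lower, with a range of -0.37 to 0.14. A dimmer probe of Psme4 gave 0.05 and 0.11. Other probes of Psma6, Psmb2, Psmc1 and Psmd6 were lower at day 2, by 0.32, 0.33, 0.34 and 0.31, where the brightest probe of each gene did not pass, though with the replicate block it did for Psma6, Psmc1 and Psmd6 (adjusted p = 0.0197, 0.00751 and 0.0437). In Psmb6 the other probe gave 0.33 and -0.35, and in Psmg1 it gave -0.33 and -0.25. Dim second probes of Psma3, Psmg2, Psmg3, Psmd1 and Psmc2 showed no call in any comparison.

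Of the 16 measured genes for proteins associated with the proteasome, 4 were called on silencing at day 0. These were 2 higher, against 10.1% of all genes, and 2 lower, against 9.85%. Pomp, the maturation factor of the core, differed by 0.19 at day 0 and -0.26 at day 2 (adjusted p = 0.214 and 0.118), and fell from day 0 to day 2 in siBach1 cells by 0.58. Akirin2, which brings proteasomes into the nucleus, and Zfand5, a proteasome-binding activator, were higher at day 0 by 0.34 and 0.28. Zfand2a and Fbxo7 were lower at day 0 by 0.36 and 0.30. In the 12 fits that left out 1 array, the call was lost in 10 for Akirin2 and for Fbxo7, in 9 for Zfand5 and in 1 for Zfand2a. With time 10 of the 16 were lower in siControl cells, against 30.1% of all genes, with the deubiquitinase Uchl5 falling furthest, by 1.36. None of the 7 ubiquitin and E1 genes was called on silencing at either day.

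Among the 11 regulators of proteasome genes, Nfe2l1 was lower on silencing by 0.23 at day 0 (adjusted p = 0.153) and by 0.44 at day 2 (adjusted p = 0.0227). Its call at day 2 was lost in 3 of the 12 fits that left out 1 array and in 5 of 12 other settings. With time Nfe2l1 rose by 1.40 in siControl and 1.20 in siBach1 cells, while most core and regulatory genes were lower. Nfe2l2 differed by -0.03 and -0.18 on silencing (adjusted p = 0.901 and 0.29). Besides Bach1, Ddi2, the protease that releases Nfe2l1, was lower by 0.38 and Nfyb by 0.58 at day 0, and the small Maf gene Maff was lower by 0.58 at day 2. For the 6 genes whose promoter window held TGACNNNGC the median silencing effect was 0.14 at day 0 and -0.23 at day 2, and for the 32 other tested genes with a window it was 0.12 and -0.28.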

How the data were processed

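RNA of 12 C2C12 samples was hybridized with Cyanine 3 on 1-colour Agilent mouse arrays of 62976 spots. The authors deposited the scanner's processed signal, an intensity from which local background had been taken off, beside raw spot intensities and quality flags. The file headers name Feature Extraction 10.7.3.1, and the submitters' processing notes 9.1. The authors also deposited a table with raw intensities and normalized log2 values, which equalled log2 intensity minus the array's 75th percentile minus the probe's median to within 0.000338.

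Outlier spots (76 to 110 per array) were left out, no spot was saturated, repeated spots were averaged as log2, and values were set relative to the 75th percentile of their array. The 29664 of 56605 probes well above background on all 3 arrays of a condition were fitted in limma 3.58.1 (R 4.3.3) with 4 conditions and no block. P-values were Benjamini-Hochberg adjusted over all of them and called under 0.05. Tables were made with Python 3.11.15, pandas and numpy. The fit was tested on simulated data. Depth does not apply to arrays, and their number limits the precision.

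The members and lists were chosen with earlier results of these data known. The genes named are the catalytic, immunoproteasome, assembly, activator and inhibitor members, members never above background, the 10 largest called rises and falls of each comparison, and from the pathway lists Pomp, Nfe2l1, Nfe2l2, Bach1, Hmox1 and those called on silencing, of which 1 is not reported here, and others named beside them were picked after their values were seen. Arrays of the same replicate number deviated together in all 18 pairs (correlation of residuals 0.142 to 0.595, the limit being 0.1). The 36 pairs of different numbers ranged from -0.442 to 0.264. Those between replicates 1 and 2, which shared a slide, were all positive, and those with replicate 3 were all negative. The check therefore cannot tell pairing from slide. The numbers were taken as pairing the samples, and values with the replicate as a block are given beside results they change. Alternatives were quantile normalization, normexp correction (offset 50), the deposited normalized values, other filters, replicate or slide blocks, separate fits, a robust trended prior, the methods' t-test, a fold of at least 2, the mean of a gene's probes and each array left out. Protein sequences were not used here. Array headers refer to an earlier mouse assembly, so coordinates are those of the RefSeq promoter table (GRCm38.p6).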

Additional observations from a re-analysis of the deposited data

Results flagged for a closer look

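The silencing effect differed between the days, by the interaction test, for 4 probes of member genes and for 2 related genes. The effect at day 2 minus that at day 0 was -0.55 for Psma7 (adjusted p = 0.0362), -0.57 for Psmb3 (adjusted p = 0.0474) and -0.53 for Psmb6 (adjusted p = 0.0381). It was -0.46 for a second probe of the ATPase gene Psmc1 (adjusted p = 0.0412), whose brighter probe gave -0.45 without passing (adjusted p = 0.136). Psme2b, a gene close to Psme2 in name that the rule for members left out, gave -0.44 (adjusted p = 0.0282). Zfand2a went the other way, at 0.50 (adjusted p = 0.036).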

How the results depend on the processing

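Arrays have no read depth, and their signal over background limits Psmb8 and Psmb9 most. Counts are given as members higher and lower. The share of all genes called changes with the setting too, and is given only where the Results print it. Counts without that share show how far the member count moved, and are not a result about the members. Leaving out each array in turn gave 0 to 2 and 1 to 4 for silencing at day 0 (median 0.06 to 0.14), 0 to 2 and 5 to 15 at day 2 (median -0.31 to -0.22), 5 to 6 and 18 to 24 for differentiation in siControl cells (median -0.27 to -0.22), 4 and 36 in siBach1 cells (median -0.62 to -0.52), and 0 to 2 lower in the difference between days (median -0.39 to -0.28). For silencing at day 0, counts were 0 and 6 with quantile normalization (median 0.00876), 4 and 5 with normexp, 9 higher with the replicate block, 8 and 5 with the slide block, 5 and 5 with a robust trended prior, 0 and 1 without a filter or in a separate fit, 5 lower with the mean of a gene's probes, 7 and 7 with the methods' t-test unadjusted and 0 higher with it adjusted. For silencing at day 2 they were 2 and 6 with quantile normalization (median -0.15), 2 and 27 with the replicate block or the slide block, 1 and 21 with the robust prior, 1 lower without a filter, 5 lower in a separate fit, 1 and 29 with the t-test unadjusted, 6 lower with it adjusted, and 1 higher with normexp or with probes well above background on all 12 arrays. The difference between days gave, as lower, 0 with quantile normalization (median -0.13) or without a filter, 22 with the replicate block, 23 with the slide block, 11 with the robust prior, 5 with normexp, and 6 with the mean of probes or probes above background on all 12 arrays. For differentiation, quantile normalization gave 8 higher in siBach1 cells (medians -0.14 in siControl and -0.29 in siBach1 cells), and the filter on all 12 arrays 2 higher. A fold of at least 2 left 0 for silencing and for the difference, 1 and 1 for siControl cells and 1 and 2 for siBach1 cells, the higher one being Psmb8 by its measured value. With the mean of all probes, Ddi2 turned to -0.0514 in siControl cells and Nfe2l2 to 0.625 in siBach1 cells with differentiation. The replicate block changed no other call of a member than those the report names. The cause of these shifts was not tested.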
